A study of Mus musculus with 16 samples.

Results

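The genes described are 10 heat shock genes of the cytosol and the mitochondrion: Hspa1a, Hspa1b, Hspa8, Hsph1, Dnajb1, Hsp90aa1, Hsp90ab1, Hspb1, Hspd1 and Hspe1. They were chosen by name, and values of these same arrays were known when they were chosen, so their differences are given as a description and nothing is read from how many of them differ. Every probe set that carries one of these symbols alone was taken, without a threshold on its values. That gave 20 probe sets of 9 genes, out of 22626 probe sets tested. Hsp90ab1, the constitutive partner of Hsp90aa1, had no probe set under its symbol in the platform annotation used and is not described further.

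Heat shock proteins are chaperones, which hold and fold other proteins. When unfolded protein builds up in the cytosol, heat shock factor 1 binds promoters that carry inverted repeats of the letters GAA and switches on the inducible members, above all the HSP70 genes Hspa1a and Hspa1b. Hspa8 is the HSP70 that cells hold at a steady level, Dnajb1 and Hsph1 are partners that drive the HSP70 cycle, Hsp90aa1 is the stress-inducible cytosolic HSP90, Hspb1 is a small heat shock protein, and Hspd1 with Hspe1 makes the folding chamber of the mitochondrion. This response is a pathway of its own beside the integrated stress response, in which PERK and related kinases phosphorylate the initiation factor eIF2α and lower protein synthesis.

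The study measured liver RNA of male FvB/n mice on 16 arrays, in 2 experiments of 8 arrays that are each on their own scale. In the first, 4 arrays came from TTR::Fv2E-PERK mice treated with AP20187 and 4 from untreated TTR::Fv2E-PERK mice, which the series' design text calls mock-injected. All 8 carry the high-expression transgene, a chimera of PERK that AP20187, a synthetic dimerizer, brings together and so activates, driven by the transthyretin promoter that is active in hepatocytes. In the second, 2 arrays each came from Alb::GC mice fed a high fat diet (HFD), wildtype mice fed HFD, Alb::GC mice fed a low fat diet (LFD) and wildtype mice fed LFD. Outside the labels, Alb::GC is known as a transgene that expresses the phosphatase-activating C-terminal part of GADD34 from the albumin promoter and so lowers eIF2α phosphorylation in hepatocytes. The labels used here give no age, dose, time after injection or length of diet, and do not name the animal behind each array, so the spread between arrays may be technical. Each value is a ratio around 1 with 2 decimals, whose denominator is not given in the sources used here. A ratio gives no level, so genes are not ranked against each other, and hepatocyte markers, measured by 11 probe sets of 6 of the 8 listed genes, could not be checked for presence. The number of arrays limits the precision. As a check of the treatment, all 7 probe sets of 5 integrated stress response targets were higher with AP20187. Chac1, which breaks down glutathione, averaged 2.75 ± 0.342 on AP20187 arrays, against 0.26 ± 0.0271 on untreated arrays (SD, n = 4 each), a log2 difference of 3.17 ± 0.13 (limma adjusted p = 4.56e-05). Atf3, a stress-induced transcription factor, had 1.03, 1.18, 1.3 and 1.1 with AP20187 and stood at 0.01, the smallest value in the data, on all 4 untreated arrays, so no fold is given.

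Promoter sequence was looked at first, because heat shock factor binding repeats are what the inducible members share by textbook knowledge. RefSeq windows on build GRCm38.p6, running from 250 bases before to 50 bases after a gene's start, were at hand for 7 of the 10 genes, as 10 windows. The 200 bases before the start are shown for the HSP70 pair, for Hspb1 and for Hsph1, the members with the largest differences after AP20187, and 30 bases are shown for the site that Hspe1 shares with Hspd1. All run 5′ to 3′ on the gene's strand, and capitals mark GAANNTTC and TTCNNGAA, the 2 ways in which GAA and its reverse complement face each other. Each of these letter strings is its own reverse complement, so 1 search covers both strands.
Hspa1a (chr17:34972157-34972356, minus strand): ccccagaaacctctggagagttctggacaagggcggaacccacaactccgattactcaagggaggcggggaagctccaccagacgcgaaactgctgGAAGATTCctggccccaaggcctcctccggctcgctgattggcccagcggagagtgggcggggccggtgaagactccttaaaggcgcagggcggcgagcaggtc
Hspa1b (chr17:34959239-34959438, minus strand): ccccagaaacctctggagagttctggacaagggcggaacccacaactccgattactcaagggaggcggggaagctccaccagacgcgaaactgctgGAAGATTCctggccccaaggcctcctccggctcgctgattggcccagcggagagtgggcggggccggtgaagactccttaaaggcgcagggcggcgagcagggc
Hspb1 (chr5:135887719-135887918, plus strand): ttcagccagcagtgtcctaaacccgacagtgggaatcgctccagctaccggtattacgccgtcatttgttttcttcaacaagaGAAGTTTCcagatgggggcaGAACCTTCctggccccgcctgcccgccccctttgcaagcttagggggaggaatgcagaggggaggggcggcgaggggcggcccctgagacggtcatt
Hsph1 (chr5:149636337-149636536, minus strand): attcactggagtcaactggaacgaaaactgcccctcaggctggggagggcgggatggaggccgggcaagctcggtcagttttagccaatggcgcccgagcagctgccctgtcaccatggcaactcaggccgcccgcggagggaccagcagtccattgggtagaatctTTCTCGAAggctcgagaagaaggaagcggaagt
Hspe1 (chr1:55088053-55088082, plus strand): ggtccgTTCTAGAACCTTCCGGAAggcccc
At least 1 of these repeats stood in 7 of the 10 windows, from 6 of the 7 genes, with Dnajb1 the exception, against 15.1% of 32851 promoter windows of the same length. The 2 Hsph1 windows overlap and hold the same repeats, so the windows do not count separate sites. GAANNTTC alone was in 7.86% of all windows and TTCNNGAA in 8.52%. The printed Hspa1a and Hspa1b stretches have the same base at 199 of 200 positions, and their windows start 12918 bases apart. Hspd1 has 2 windows, and from the start of one of them Hspd1 and Hspe1 are transcribed away from each other. That window overlaps the Hspe1 window by 285 bases, so the capitals in the Hspe1 line belong to both. They are a run of 18 bases that holds TTCNNGAA in 2 copies and an overlapping GAANNTTC between them. The other Hspd1 window overlaps the Hspe1 window by 4 bases and holds neither repeat. That paired arrangement was found in 5 promoter windows, 0.0152% of all, and 2 of those 5 are the overlapping Hspd1 and Hspe1 windows themselves. All shares of promoter windows given here include the members' own windows. CCAAT was in 6 member windows of 5 genes (37.4% of all windows), and TGATGNAA, letters found in sites of the integrated stress response factor ATF4, was in 0 of 10 (3.97% of all windows), both strands searched. A match of letters is a description and not a bound site, and no match says only that the letters are not in the window.

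With AP20187 the heat shock genes had lower ratios, most of all the inducible HSP70 genes. All 20 probe sets had a negative log2 difference, with a median of -1.03 and a range from -2.43 to -0.26, while the median of all 22626 probe sets was -0.13. In the limma fit over all probe sets, 18 of the 20 passed a Benjamini-Hochberg adjusted p of 0.05 as lower and 0 as higher. Of all probe sets, 20.4% were called lower and 13.7% higher. For 18 probe sets all 4 AP20187 arrays lay below all 4 untreated arrays, as they did for 20.5% of all probe sets. Differences are on the scale log2(ratio + 0.05), which understates those that reach the smallest ratios, and errors are standard errors of the fit.

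**Figure D1:**
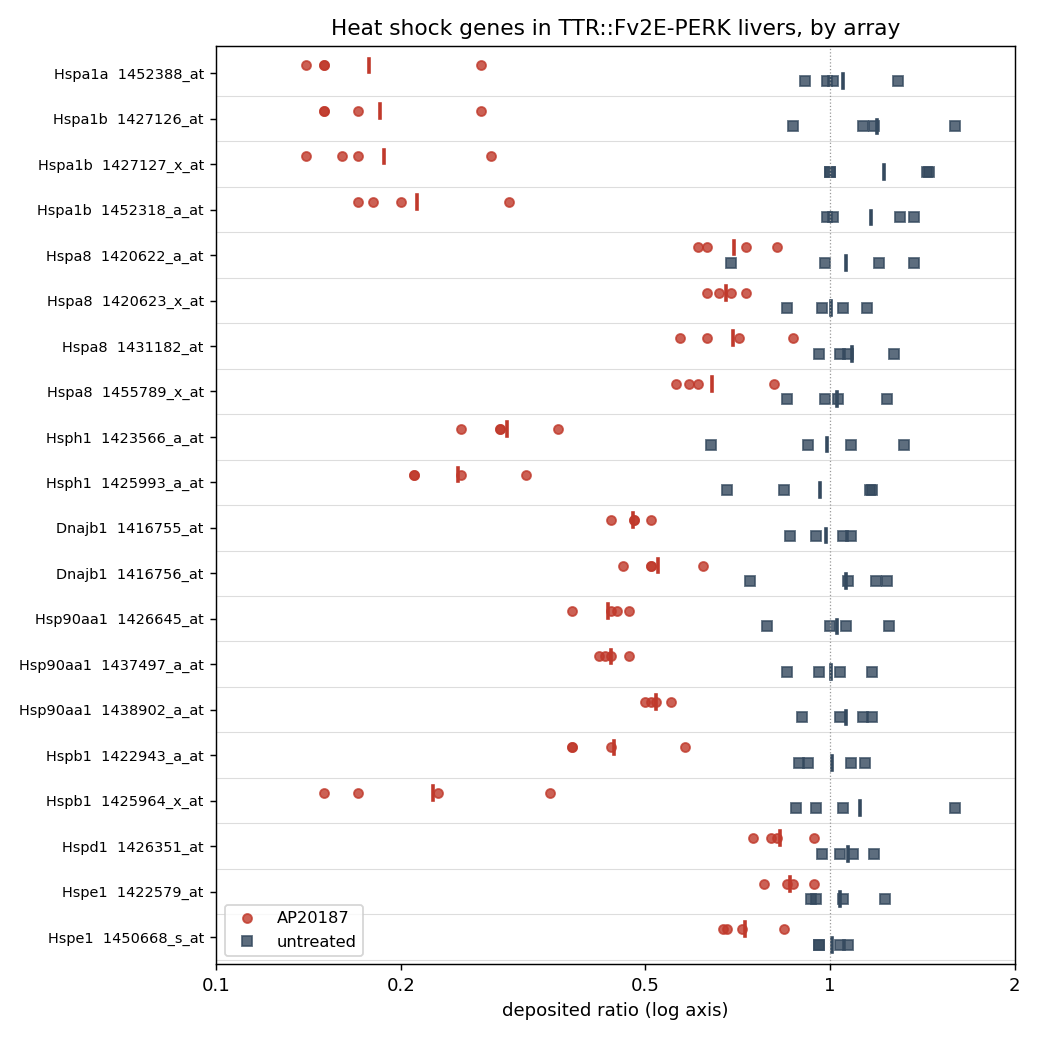
Deposited ratio of each of the 20 heat shock probe sets in TTR::Fv2E-PERK livers, on a log axis. Circles are the 4 AP20187 arrays, squares the 4 untreated arrays, and the short bar is the group mean. The HSP70 pair and one Hspb1 probe set are farthest apart, with AP20187 arrays from 0.14 to 0.35, and the groups of Hspd1 and Hspe1 lie closest together.

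The inducible HSP70 genes stood farthest down. Hspa1a had ratios of 0.15, 0.14, 0.15 and 0.27 on AP20187 arrays, against 1.01, 0.91, 1.29 and 0.99 on untreated arrays, a log2 difference of -2.30 ± 0.28 (limma adjusted p = 0.000577), or 4.91 times lower on that scale. Hspa1b, whose coding sequence is almost the same, was read by 3 probe sets. On 1427127_x_at it had 0.17, 0.14, 0.16 and 0.28 with AP20187 and 1.0, 1.0, 1.44 and 1.45 without it, a difference of -2.43 ± 0.28 (adjusted p = 0.000472). The other Hspa1b probe sets, 1427126_at and 1452318_a_at, differed by -2.40 ± 0.29 and -2.22 ± 0.25. No array of one group reached the other for any of these 4 probe sets. The suffixes _x_at, _s_at and _a_at mark probe sets that can match more than 1 transcript, and signals of these paralogs cannot surely be told apart.

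The partners of HSP70 were lower as well. Hsph1, the HSP110 nucleotide exchange factor, had 0.25, 0.21, 0.32 and 0.21 on AP20187 arrays for probe set 1425993_a_at, against 0.84, 0.68, 1.16 and 1.17 on untreated arrays. That is a difference of -1.75 ± 0.27 (limma adjusted p = 0.00188), and its other probe set, 1423566_a_at, differed by -1.55 ± 0.27 (adjusted p = 0.00311). Dnajb1, the HSP40 that delivers clients to HSP70, had 0.48, 0.44, 0.51 and 0.48 with AP20187 for 1416755_at and 0.95, 0.86, 1.08 and 1.05 without it. Its 2 probe sets differed by -0.97 ± 0.16 and -0.93 ± 0.20 (adjusted p = 0.00214 and 0.00811). The AP20187 arrays of both genes lay together below the untreated ones.

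Hsp90aa1 and Hspb1 followed. Hsp90aa1 had 0.38, 0.45, 0.47 and 0.44 on AP20187 arrays for 1426645_at, against 1.0, 0.79, 1.06 and 1.25 on untreated arrays. Its 3 probe sets differed by -1.13 ± 0.19, -1.10 ± 0.17 and -0.96 ± 0.14, with limma adjusted p between 0.00155 and 0.00261. Hspb1 had 0.17, 0.15, 0.35 and 0.23 with AP20187 for 1425964_x_at and 1.05, 0.95, 0.88 and 1.6 without it, a difference of -2.11 ± 0.32 (adjusted p = 0.00158). Its probe set 1422943_a_at gave -1.11 ± 0.20 (adjusted p = 0.00339), so the 2 probe sets share the direction and not the size.

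The constitutive and mitochondrial members moved least. Of the 4 Hspa8 probe sets 3 passed as lower, with differences from -0.64 ± 0.17 to -0.53 ± 0.13. Probe set 1420622_a_at, had 0.61, 0.63, 0.73 and 0.82 on AP20187 arrays, against 1.2, 0.69, 0.98 and 1.37 on untreated arrays, and did not pass (-0.54 ± 0.22, limma adjusted p = 0.0946). Hspd1, the mitochondrial HSP60, had 0.82, 0.8, 0.94 and 0.75 with AP20187 and 1.09, 1.04, 0.97 and 1.18 without it, a difference of -0.35 ± 0.11 (adjusted p = 0.0387). Its call was lost when array medians were made equal (-0.30, adjusted p = 0.0581), with quantile normalization (-0.31, adjusted p = 0.0712), and without any one of untreated replicates 1, 2 and 4 or AP20187 replicates 1, 2 and 4 (adjusted p from 0.0675 to 0.0995). Hspe1, its lid, differed by -0.45 ± 0.12 on 1450668_s_at (adjusted p = 0.0209) and by -0.26 ± 0.12 on 1422579_at, which did not pass (adjusted p = 0.143). The call for Hspe1 1450668_s_at was lost without untreated replicate 1 or 4 or AP20187 replicate 2 (adjusted p up to 0.0614). Each Hspa8 call was lost without untreated replicate 3, and single Hspa8 calls also without untreated replicate 1 or 4 or AP20187 replicate 1 or 2 (up to 0.0648), while 1420622_a_at passed without untreated replicate 2 (adjusted p = 0.0177).

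Over the 8 arrays of this experiment the members tracked one another. Pearson correlations of log2 values between the 9 genes, each averaged over its probe sets, were from 0.773 to 0.997 with a median of 0.941 in 36 pairs. They are given as a description, because the arrays fall into 2 separate groups and such values mostly repeat the difference between them. Of all probe sets, the members' own included, 2846 correlated above 0.9 with the members' mean. The 5 genes most like that mean were H2az1, Pnpla7, Ndufb7 and Mocos at 0.997 and Tmem176a at 0.996. Those most like Hspa1b were Eif3l at 0.996, and Pcbd2 and Mocos at 0.994.

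Markers of some liver cell types also had lower summed ratios with AP20187. Their calls stand beside 20.4% of all probe sets called lower and 13.7% called higher. The summed ratios of 11 hepatocyte marker probe sets were 10.4 to 11 on AP20187 arrays, against 14.1 to 15.8 on untreated arrays, and 9 of the 11 were called lower. For 14 stellate cell and fibroblast probe sets the sums were 11.4 to 12.4 with AP20187 and 22.0 to 28.4 without it, with 9 called lower. For 12 macrophage probe sets they were 9.22 to 12.5 with AP20187 and 14.2 to 14.8 without it, with 5 called lower. Sums of 10 endothelial probe sets were 8.67 to 10 with AP20187 and 10.5 to 13.0 without it, with 2 called lower, and those of 4 neutrophil probe sets were 2.51 to 4.04 with AP20187 and 4.45 to 4.93 without it, where no single probe set passed the limma test. These 5 lists had lower sums on every AP20187 array than on any untreated array. For 8 lymphocyte probe sets the sums were 5.4 to 7.28 with AP20187 and 7.28 to 11.3 without it, with 1 called lower. Cholangiocyte sums (5 probe sets, 1 called higher) were 4.73 to 7.17 with AP20187 and 4.7 to 7.89 without it, and erythroid sums (2 probe sets, neither of which passed) were 2.06 to 2.49 with AP20187 and 1.12 to 2.45 without it, so both overlapped. In whole liver, fewer cells of a type and less RNA per cell cannot be told apart, and the part of these shifts in the heat shock differences was not tested.

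The diet experiment divided the same genes. Averaged over both genotypes, HFD against LFD, 7 of the 20 probe sets were called higher, 5 lower, and 8 did not pass, where 13.5% of all probe sets were called higher and 14.0% lower. The members' median difference was 0.30, with a range from -3.93 to 1.94, and that of all probe sets was -0.07. All 4 HFD arrays lay below all 4 LFD arrays for 7 probe sets (15.9% of all) and above them for 3 (12.9% of all). The genes lower with HFD were Hspa1a, Hspa1b and Dnajb1, and those with a probe set higher were Hspa8, Hsph1, Hsp90aa1 and Hspb1.

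**Figure D2:**
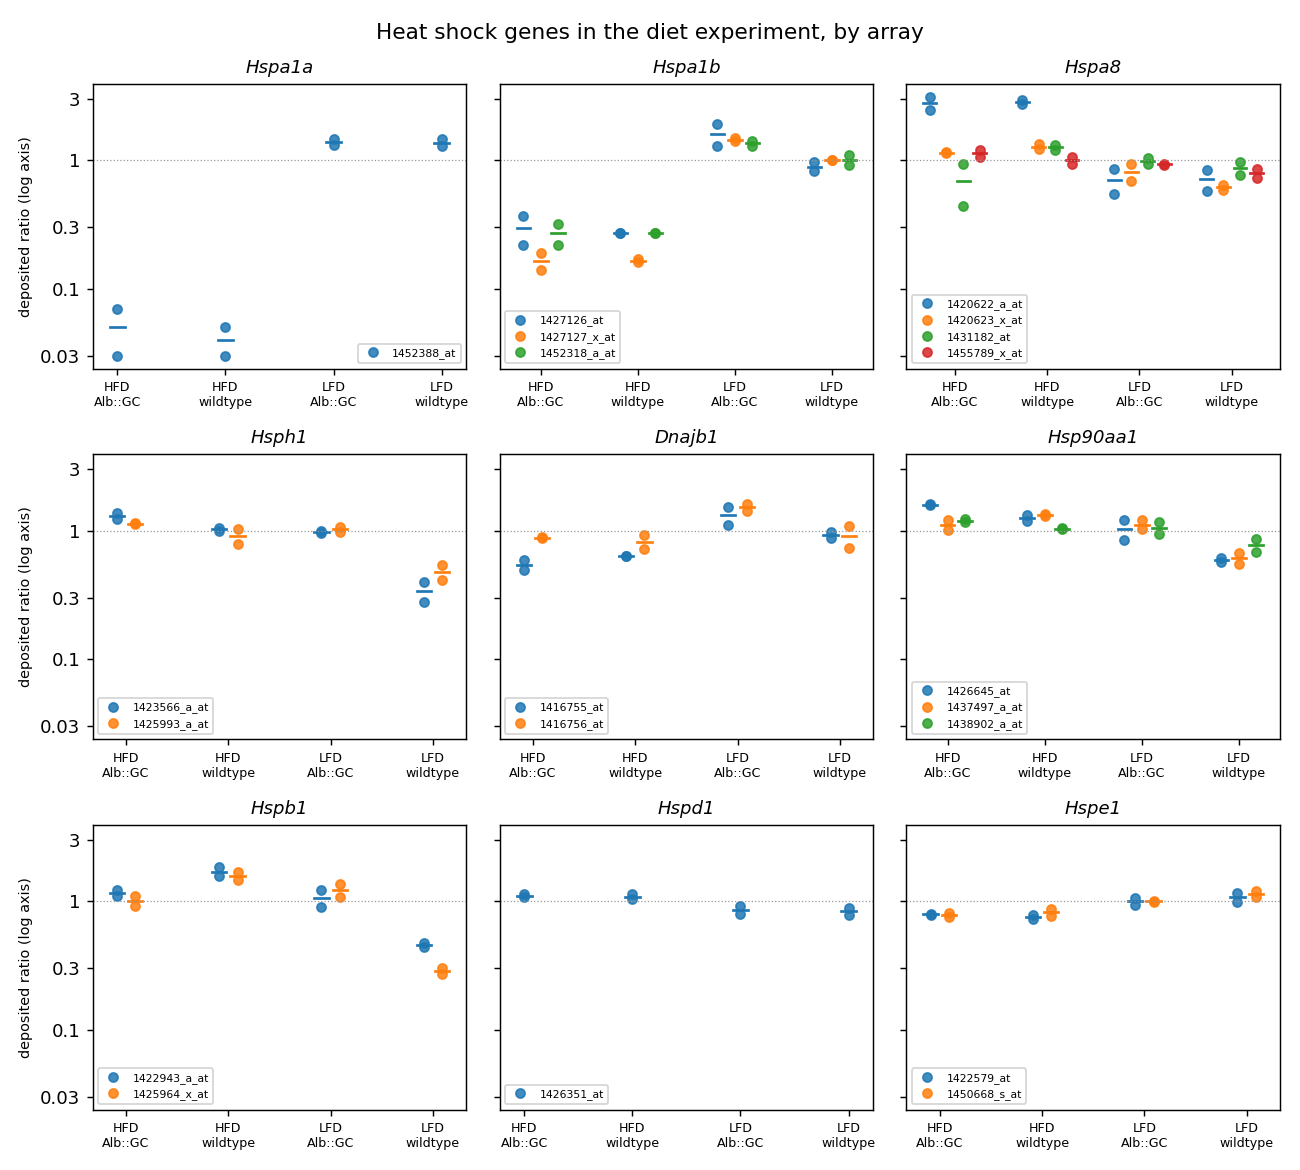
Deposited ratio of each heat shock probe set in the diet experiment, by gene, on a log axis. Each point is 1 array (2 per group), colours are the probe sets of a gene and the short bar is the group mean. Hspa1a lies between 0.03 and 0.07 in both HFD groups, against 1.28 to 1.46 in both LFD groups, while Hsph1 and Hspb1 are low only in LFD wildtype livers.

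Hspa1a and Hspa1b were lower with HFD in both genotypes. Hspa1a had 0.07 and 0.03 in HFD Alb::GC livers and 0.05 and 0.03 in HFD wildtype livers, against 1.31 and 1.45 in LFD Alb::GC livers and 1.46 and 1.28 in LFD wildtype livers. The difference was -3.93 ± 0.31 (limma adjusted p = 0.00172). Because the HFD ratios lie close to the smallest value in the data, 0.01, its size depends on the offset, with -4.47 at an offset of 0.02 and -2.69 at 0.2. For Hspa1b 1427127_x_at the ratios were 0.19 and 0.14 in HFD Alb::GC livers and 0.17 and 0.16 in HFD wildtype livers, against 1.4 and 1.48 in LFD Alb::GC livers and 1.0 and 1.0 in LFD wildtype livers. Its 3 probe sets differed by -2.55 ± 0.26, -1.93 ± 0.24 and -1.91 ± 0.27, with adjusted p from 0.00303 to 0.00700. In order, both LFD groups stood above both HFD groups for these 4 probe sets. Between the genotypes Hspa1a overlapped on either diet, whereas for each Hspa1b probe set the Alb::GC arrays lay above the wildtype arrays on LFD and overlapped them on HFD.

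The HSP70 partners did not go together. Dnajb1 1416755_at had 0.59 and 0.49 in HFD Alb::GC livers and 0.64 and 0.64 in HFD wildtype livers, against 1.11 and 1.52 in LFD Alb::GC livers and 0.98 and 0.88 in LFD wildtype livers. It differed by -0.85 ± 0.17 (limma adjusted p = 0.0180), and its second probe set, 1416756_at, by -0.43 ± 0.16 without passing (adjusted p = 0.0918, or 0.0444 without LFD wildtype replicate 2). The call for 1416755_at was lost without LFD Alb::GC replicate 2, HFD wildtype replicate 1 or HFD wildtype replicate 2, with adjusted p of 0.0536, 0.0545 and 0.0522. Hsph1 1423566_a_at had 1.37 and 1.23 in HFD Alb::GC livers and 1.0 and 1.05 in HFD wildtype livers, against 0.95 and 1.0 in LFD Alb::GC livers and 0.28 and 0.4 in LFD wildtype livers. That is a difference of 0.94 ± 0.16 (adjusted p = 0.0123, or 0.0515 without HFD Alb::GC replicate 1), and 1425993_a_at gave 0.51 ± 0.17 without passing (adjusted p = 0.0681, or 0.0468 with array medians made equal). LFD wildtype was the low group for Hsph1, and the other groups lay closer to each other.

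Hspa8 depended on the probe set. Probe set 1420622_a_at had 3.12 and 2.47 in HFD Alb::GC livers and 2.91 and 2.71 in HFD wildtype livers, against 0.54 and 0.85 in LFD Alb::GC livers and 0.84 and 0.58 in LFD wildtype livers. It was higher by 1.94 ± 0.19 (limma adjusted p = 0.00280). Probe set 1420623_x_at was higher by 0.74 ± 0.14 (adjusted p = 0.0152), a call lost without HFD wildtype replicate 2 (adjusted p = 0.0609) or HFD Alb::GC replicate 1 (adjusted p = 0.0531). The remaining probe sets gave 0.30 ± 0.12 and -0.02 ± 0.24 and did not pass (adjusted p = 0.115 and 0.953), so these data give no single answer for Hspa8 on diet.

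Hsp90aa1 1426645_at had 1.58 and 1.6 in HFD Alb::GC livers and 1.19 and 1.33 in HFD wildtype livers, against 0.85 and 1.22 in LFD Alb::GC livers and 0.61 and 0.57 in LFD wildtype livers. It was higher by 0.82 ± 0.14 (limma adjusted p = 0.0103). Of its other probe sets, 1437497_a_at was higher by 0.53 ± 0.13 (adjusted p = 0.0286), but without any one of 7 of the 8 arrays, all but LFD wildtype replicate 1, it did not pass (adjusted p from 0.0505 to 0.0924), and 1438902_a_at gave 0.29 ± 0.13 without passing (adjusted p = 0.136). Hspb1 1425964_x_at had 1.09 and 0.92 in HFD Alb::GC livers and 1.45 and 1.69 in HFD wildtype livers, against 1.36 and 1.08 in LFD Alb::GC livers and 0.27 and 0.3 in LFD wildtype livers. Its 2 probe sets were higher by 1.0 ± 0.15 and 0.96 ± 0.14 on average (adjusted p = 0.00829 and 0.00714). Within Alb::GC the arrays of both diets overlapped for Hspb1, and LFD wildtype was the low group.

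The parts of the mitochondrial chamber leaned apart. Hspd1 had 1.08 and 1.13 in HFD Alb::GC livers and 1.03 and 1.13 in HFD wildtype livers, against 0.8 and 0.92 in LFD Alb::GC livers and 0.89 and 0.78 in LFD wildtype livers, so every HFD array lay above every LFD array. Its difference of 0.35 ± 0.12 did not pass (limma adjusted p = 0.0676), and passed with array medians made equal (0.39, adjusted p = 0.0413) and with quantile normalization (0.40, adjusted p = 0.0477). Hspe1, which shares its promoter region, had 0.8 and 0.78 in HFD Alb::GC livers and 0.73 and 0.78 in HFD wildtype livers for 1422579_at. Its LFD ratios were 0.93 and 1.06 in Alb::GC livers and 1.15 and 0.99 in wildtype livers. Every HFD array lay below every LFD array, and the differences of its 2 probe sets, -0.39 ± 0.13 and -0.39 ± 0.12, did not pass (adjusted p = 0.0657 and 0.0516, the second 0.0478 without the variance trend).

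**Figure D3:**
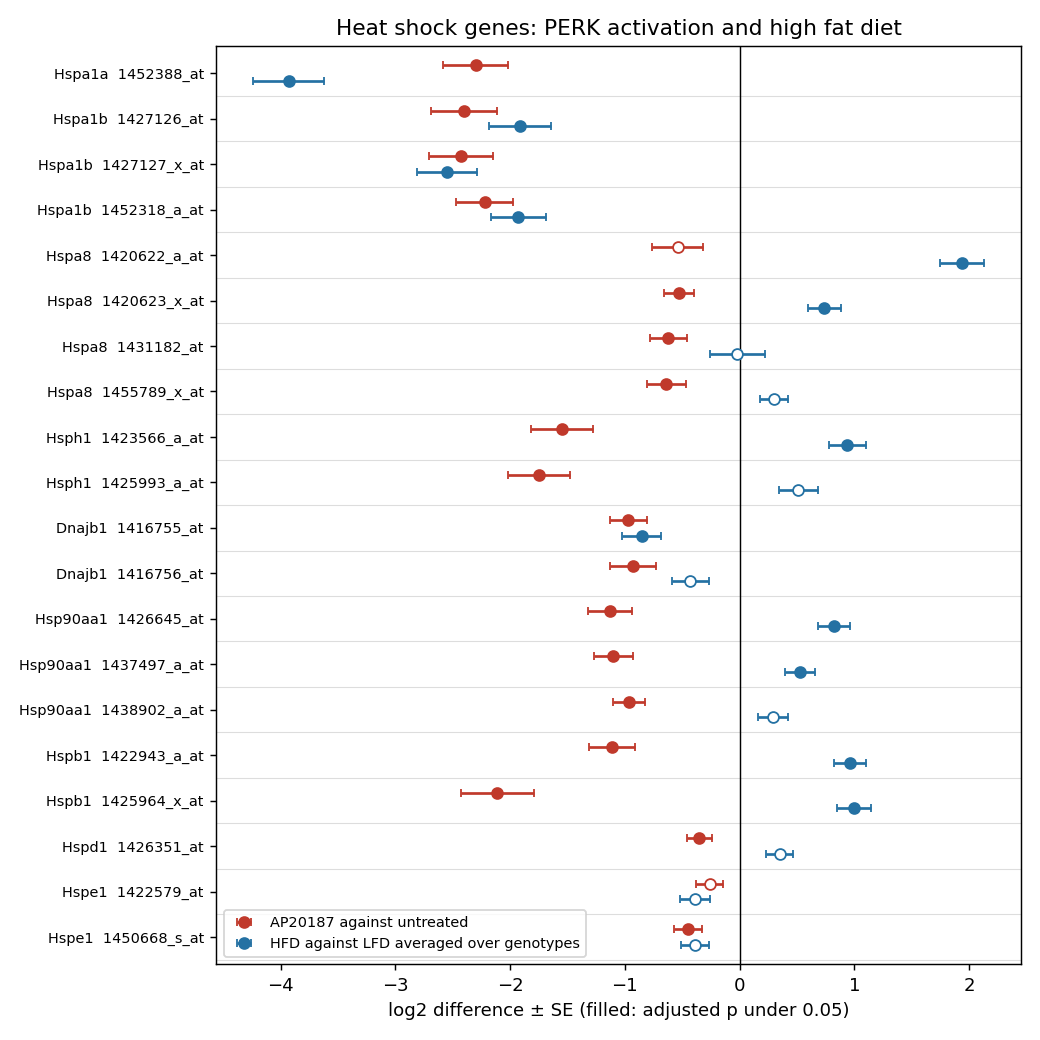
Log2 difference and standard error of each heat shock probe set for AP20187 against untreated (red, above) and HFD against LFD averaged over genotypes (blue, below). Filled points passed an adjusted p of 0.05. The HSP70 pair and Dnajb1 lie left of 0 in both, whereas Hsph1, Hsp90aa1 and Hspb1 lie left of 0 with AP20187 and right of 0 with HFD.

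The 2 experiments share no array, and whether their differences differ was not tested. Side by side, Hspa1a differed by -2.30 with AP20187 and by -3.93 with HFD, and Dnajb1 1416755_at by -0.97 and by -0.85. Hsph1 1423566_a_at differed by -1.55 with AP20187 and by 0.94 with HFD, Hspb1 1425964_x_at by -2.11 and by 1.0, and Hsp90aa1 1426645_at by -1.13 and by 0.82. Within the diet experiment the pairs of members had correlations from -0.939 to 0.981 over the 8 arrays, with a median of -0.18. Nearest to the members' mean there were Ngdn at 0.979, Agpat1 at 0.973, Tra2b at 0.964, Myc at 0.962 and Foxq1 at 0.961, and nearest to Hspa1b were Eif4enif1 and Sco2 at 0.991 and Scpep1 at 0.989. The arrays again fall into separate groups, and 747 probe sets correlated above 0.9 with Hspa1b. With the members' mean 64 did, and that mean averages members that went opposite ways with diet.

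Taken within one genotype, 4 arrays carry each comparison and the variance is shared by all 8. HFD against LFD in wildtype livers, 7 member probe sets were called higher and 4 lower, where 7.97% of all probe sets were called higher and 6.63% lower. In Alb::GC livers 1 was called higher and 5 lower, where 4.64% of all were called higher and 2.13% lower. These counts were not stable when 1 array was left out. Without an array of the genotype compared, the calls among all probe sets fell as well. They also fell without some arrays of the other genotype, such as an HFD wildtype array for the Alb::GC comparison. Each such run leaves a lone array in 1 group. It therefore cannot tell lost precision from a dependence of the members on the array left out. No called difference of a member changed sign in these runs. Hspb1 1425964_x_at was higher with HFD by 2.27 ± 0.22 in wildtype livers (limma adjusted p = 0.00599, or 0.0501 and 0.0538 without HFD wildtype replicate 1 and replicate 2). In Alb::GC livers its difference was -0.26 ± 0.22, which did not pass (adjusted p = 0.462). The test of that contrast between genotypes gave -2.53 ± 0.30 and did not pass (adjusted p = 0.110, from 0.0953 to 0.317 over the alternatives), with both LFD wildtype arrays low.

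No member passed in a comparison of genotypes. Alb::GC against wildtype on LFD, limma called 0 of the 20 probe sets and 0.0% of all, although 7 members and 2337 of all probe sets had an unadjusted p under 0.05. On LFD both Alb::GC arrays lay above both wildtype arrays for 14 of the 20, where 15.5% of all probe sets did so. They lay below for 1, and the share of all probe sets in that direction was not counted. Hspb1 1425964_x_at had the largest of these differences, 1.92 ± 0.22 (adjusted p = 0.0992), followed by Hsph1 1423566_a_at at 1.41 ± 0.23 (adjusted p = 0.167). On HFD 0 members were called, where 0.133% of all probe sets were, and 3 members and 2525 of all had an unadjusted p under 0.05. Averaged over diets 0 members and 0.0% of all were called, with 6 members and 2596 of all under 0.05 unadjusted. For the test of diet by genotype the counts were 0 and 0.0%, with 4 members and 2517 of all under 0.05 unadjusted, and without the variance trend 1 probe set was called up and 4 down among all. These p-values do not show that the genotypes are alike.

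Control probe sets and some cell markers moved with diet. The log2 difference of the 3′ and 5′ control probe sets of beta-actin was -0.71 to -0.33 on HFD arrays, against -0.16 to 0.21 on LFD arrays, and that of Gapdh was -0.31 to -0.15 with HFD and 0.04 to 0.22 with LFD. Diet and this sign of RNA quality cannot be told apart. Summed ratios of 2 erythroid probe sets were 5.1 to 5.25 in HFD Alb::GC livers and 4.46 to 5.42 in HFD wildtype livers, against 2.33 to 2.92 in LFD Alb::GC livers and 2.11 to 2.14 in LFD wildtype livers. Averaged over genotypes, 1 of these 2 probe sets was called higher with HFD and the other lower. Those of 4 neutrophil probe sets were 1.81 to 3.11 in HFD Alb::GC livers and 9.59 to 11.7 in HFD wildtype livers, against 4.1 to 4.68 in LFD Alb::GC livers and 2.91 to 4.25 in LFD wildtype livers. Averaged over genotypes, 1 neutrophil probe set was called higher with HFD and 1 lower. Of 11 hepatocyte probe sets 0 were called higher and 6 lower, where 13.5% of all probe sets were called higher and 14.0% lower. The calls were 2 higher and 0 lower of 12 for macrophage, 0 and 3 of 14 for stellate cell and fibroblast, 3 and 0 of 10 for endothelial, 1 and 2 of 5 for cholangiocyte and 1 and 0 of 8 for lymphocyte probe sets. The part of these shifts in the heat shock differences was not tested. With AP20187 the same control differences overlapped for Gapdh, at -0.14 to 0.19 on AP20187 arrays and -0.06 to -0.01 on untreated arrays. For beta-actin they were -0.04 to 0.15 on AP20187 arrays and -0.18 to -0.02 on untreated arrays, higher with AP20187 with a small overlap, and the part of this in the heat shock differences was not tested.

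Other chaperones were taken from lists of the pathway, and no difference between a list and the members was tested. Counts are of probe sets called by limma, with the range over all alternatives in brackets. Of all probe sets, 13.7% were called higher and 20.4% lower with AP20187. Higher calls among all probe sets fell whichever array was left out. Lower calls fell from 4617 to between 3729 and 4289, except without AP20187 replicate 3, where they were 4626. With AP20187, heat shock factors and their regulators had 0 higher (0 to 1) and 3 lower (3 to 3) of 6, with a median of -0.64. The lower calls were of Hsbp1 and Hspbp1, and the factors Hsf2 and Hsf4 did not pass. Hsf1, the gene of heat shock factor 1, had no probe set under its symbol. Hsbp1, which binds heat shock factor 1 and restrains it, fell by 0.96 ± 0.13, to a mean of 0.802 ± 0.121 on AP20187 arrays, against 1.60 ± 0.223 on untreated arrays (SD, n = 4 each). Hspbp1, an HSP70 nucleotide exchange factor that was counted in this list, fell by 0.79 ± 0.14. Other cytosolic HSP70, HSP110 and HSP40 genes had 5 higher (4 to 6) and 7 lower (3 to 7) of 38, with a median of 0.01. The low end of 3 came without untreated replicate 4. Dnaja2, an HSP40, rose by 0.95 ± 0.15 on 1417183_at while 1417182_at gave 0.30 ± 0.14 without passing. The HSP110 gene Hspa4 rose by 0.74 ± 0.14 on 1416146_at, and its other probe sets did not pass.

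HSP70 and HSP90 co-chaperones had 7 higher (5 to 9) and 9 lower (6 to 9) of 26 with AP20187, with a median of -0.23. The immunophilin Fkbp5, which glucocorticoids induce, had 1.48 ± 0.0735 on AP20187 arrays for 1448231_at, against 0.203 ± 0.0492 on untreated arrays (SD, n = 4 each), a rise of 2.62 ± 0.22 (limma adjusted p = 0.000129). Its paralog Fkbp4 fell by 1.21 ± 0.13 on 1416362_a_at and did not pass on 1416363_at (-0.30 ± 0.23). Other small heat shock proteins had 2 higher (2 to 2) and 2 lower (1 to 2) of 11, with a median of -0.13, and 1 lower without any one of untreated replicates 1, 2 and 3 or AP20187 replicates 1 and 2. Hspb8, a partner of BAG3 in clearing proteins, rose by 1.09 ± 0.15 on 1417013_at, whereas the lens and muscle crystallin Cryab fell by 1.40 ± 0.30 on 1416455_a_at. The cytosolic chaperonin and prefoldin had 3 higher (1 to 3) and 8 lower (5 to 11) of 31, with a median of -0.24. Without AP20187 replicate 2 there were 1 higher and 5 lower, and without untreated replicate 4 there were 5 lower. The prefoldin subunit Pfdn1 fell by 1.05 ± 0.07. Pfdn5, another subunit, fell by 0.67 ± 0.08 on 1415736_at, and not all of its other probe sets were called lower.

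Mitochondrial chaperones and proteases outside the members had 4 higher (3 to 5) and 4 lower (1 to 6) of 28 with AP20187, with a median of -0.18. The exchange factor Grpel2 rose by 1.11 ± 0.17 and the mitochondrial HSP40 Dnaja3 by 0.78 ± 0.13 on 1449935_a_at. The lower count was 1 without untreated replicate 1 or 4 or AP20187 replicate 1, and 2 without untreated replicate 3 or AP20187 replicate 4. The relatives in the endoplasmic reticulum had 0 higher (0 to 0) and 9 lower (7 to 9) of 18, with a median of -0.52. Dnajb11, an HSP40 of that compartment, fell by 2.07 ± 0.19, and Hyou1, its HSP110, by 2.22 ± 0.23 on 1451913_a_at. Cirbp, a cold-inducible RNA-binding protein, differed by -0.27 ± 0.15 and did not pass (limma adjusted p = 0.227).

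**Figure D4:**
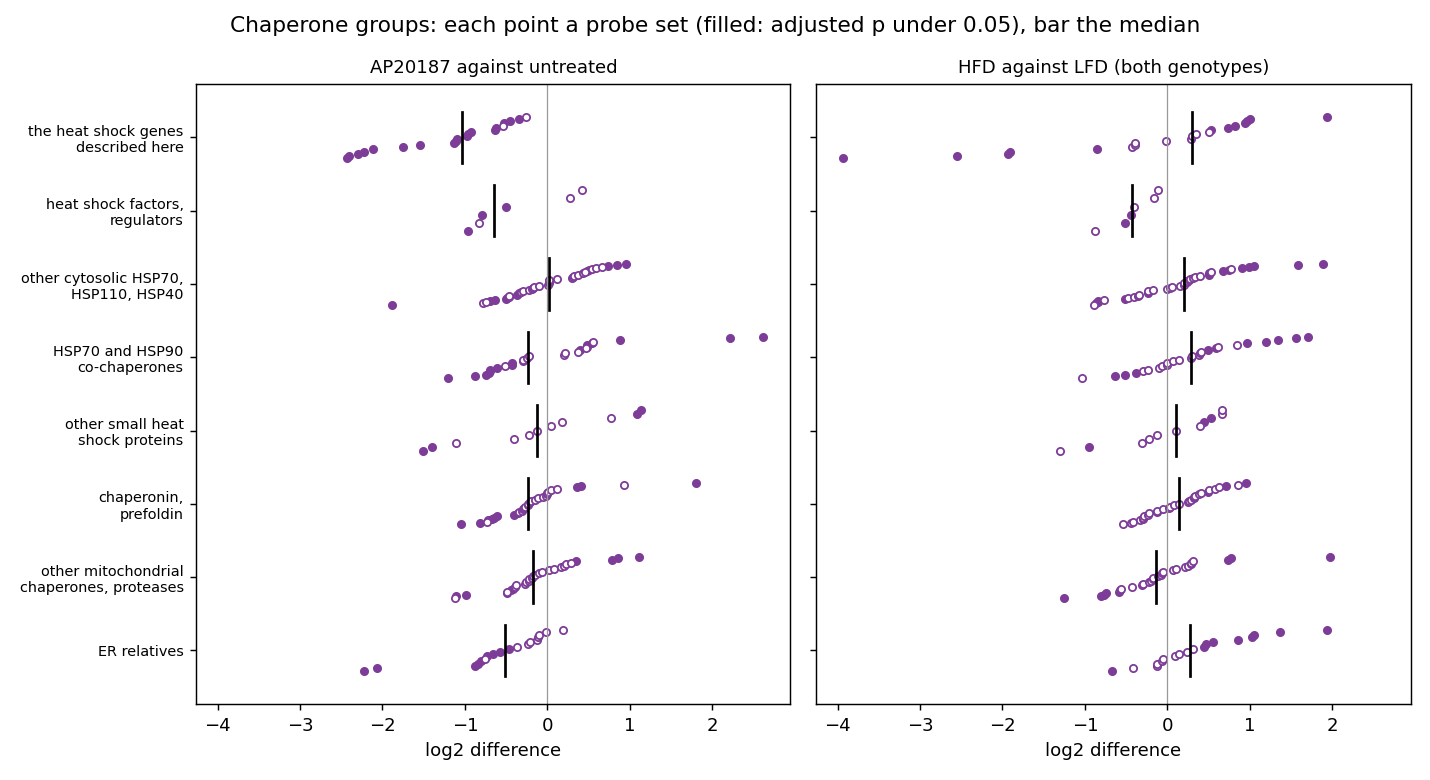
Log2 difference of each probe set of the heat shock genes and of 7 chaperone lists, for AP20187 against untreated (left) and HFD against LFD averaged over genotypes (right). Filled points passed an adjusted p of 0.05 and the bar is the median of a list. The described genes have a median of -1.03 on the left and 0.30 on the right, and their lowest points on the right are Hspa1a and Hspa1b.

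With HFD, averaged over genotypes, 13.5% of all probe sets were called higher and 14.0% lower. Leaving out any 1 of the 8 arrays moved a count of at least 1 of these lists. Moved means by more than 1.5 times, or to or from 0, for which 1 probe set is enough where a count is small. The calls among all probe sets fell in each of these runs too. Heat shock factors and regulators had 0 higher (0 to 0) and 2 lower (0 to 2) of 6, with a median of -0.42. Hsbp1 differed by -0.44 ± 0.09 and Dedd2 by -0.51 ± 0.14, and again neither Hsf2 nor Hsf4 passed. The other cytosolic HSP70, HSP110 and HSP40 genes had 9 higher (6 to 10) and 4 lower (1 to 5) of 38, with a median of 0.20. The HSP110 gene Hspa4l rose by 1.05 ± 0.11, with 1.67 ± 0.0919 in HFD Alb::GC livers and 1.77 ± 0.297 in HFD wildtype livers, against 1.0 ± 0.0424 in LFD Alb::GC livers and 0.64 ± 0.0283 in LFD wildtype livers (SD, n = 2 each). Dnajc5, the cysteine string protein of secretory vesicles, rose by 0.75 ± 0.09 on 1448850_a_at, and 2 of its 5 probe sets passed.

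Co-chaperones had 7 higher (4 to 9) and 3 lower (0 to 3) of 26 with HFD, with a median of 0.29. Fkbp4 rose by 1.34 ± 0.09 on 1416363_at and Fkbp5 by 1.56 ± 0.14 on 1416125_at, where the ratios were 2.31 to 2.41 in HFD Alb::GC livers, 0.98 to 1.02 in HFD wildtype livers, 0.51 to 0.66 in LFD Alb::GC livers and 0.38 to 0.44 in LFD wildtype livers. Other small heat shock proteins had 2 higher (0 to 2) and 1 lower (0 to 2) of 11, with a median of 0.11. Hspb7 differed by -0.95 ± 0.21 on 1421290_at and Hspb8 by 0.53 ± 0.13 on 1417014_at. The chaperonin and prefoldin had 3 higher (1 to 5) and 0 lower (0 to 2) of 31, with a median of 0.14, and the chaperonin subunits Cct2 and Cct4 were higher on single probe sets only, by 0.95 ± 0.17 and 0.49 ± 0.13.

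Mitochondrial chaperones and proteases had 3 higher (2 to 4) and 6 lower (0 to 6) of 28 with HFD, with a median of -0.14. Hspa9, the mitochondrial HSP70, rose by 1.97 ± 0.23 on 1431274_a_at, while its other probe sets did not pass. The matrix protease Lonp1 rose by 0.74 ± 0.10. The endoplasmic reticulum relatives had 8 higher (5 to 8) and 1 lower (0 to 1) of 18, with a median of 0.27. Dnajc3, an HSP40 that restrains PERK, rose by 1.93 ± 0.14 on 1449373_at and Hsp90b1, the HSP90 of that compartment, by 1.05 ± 0.12 on 1415889_a_at. Cirbp fell by 1.15 ± 0.17 with HFD (limma adjusted p = 0.00754). Among the integrated stress response targets 1 probe set was higher (0 to 1) and 1 lower (0 to 2) of 7, Chac1 at 0.69 ± 0.17 and the asparagine synthetase gene Asns at -0.63 ± 0.14.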

How the data were processed

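Liver RNA was extracted, copied into biotinylated cRNA and hybridised to Affymetrix arrays, per the labels' protocols. The deposited values are 1 ratio per probe set and array, read as such from the values; no source used here gives the scanner software, summary method or denominator. Array medians were 0.94 to 1.02. Groups follow each array's description. For LFD wildtype replicate 2 a further label field carries both genotype names, and for AP20187 replicate 4 such a field is 1 letter only. Replicates correlated at 0.442 to 0.658 in log2, and none was a duplicate.

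After 64 control probe sets were left out, limma 3.58.1 in R 4.3.3 was fitted to log2(ratio + 0.05) with a variance trend, once per experiment, with Benjamini-Hochberg adjustment over 22626 probe sets at 0.05, two-sided. The TTR::Fv2E-PERK fit had 6 residual degrees of freedom and the diet fit 4. The code was tested on simulated data. Symbols came from the platform annotation, which can be old: 20380 probe sets had 1 symbol, 691 several and 1555 none, and those with several or none named no gene. All members are described, whatever they show. From each pathway list the 2 genes with the smallest p after AP20187 and the 2 with HFD are named. Members and lists were chosen with earlier results of these data known. Alternatives were other offsets, scalings, a filter, no variance trend, array weights, left-out arrays and fewer arrays in the fit.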

Additional observations from a re-analysis of the deposited data

Results flagged for a closer look

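In AP20187 replicate 4 the Hspa1a probe set 1452388_at had a ratio of 0.27, apart from the other AP20187 arrays at 0.14 to 0.15, with a gap of 0.923 of the group's range. The same array had 0.27 for Hspa1b probe set 1427126_at, against 0.15 to 0.17 on the other AP20187 arrays, a gap of 0.833 of the range. Both ratios stayed below every untreated array, and without this array the Hspa1a difference was -2.47. These were 2 of the 40 groups of 4 arrays that were looked at, and chance gives such a gap in about 1 in 20 groups.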

How the results depend on the processing

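No called difference of a member changed sign under any alternative run. With AP20187, 251 of 270 alternative values of called probe sets still passed and 19 did not, at 5 probe sets of Hspa8, Hspd1 and Hspe1, and 1 further value came to pass. With HFD averaged over genotypes 167 of 180 still passed, 13 did not, all with an array left out, and 5 came to pass. Within wildtype 128 of 176 still passed, and within Alb::GC 59 of 96. Of 1758 alternative values of uncalled differences 60 changed sign without passing. With 1 array left out, the count lower with AP20187 was 14 to 18. HFD counts of members moved as well. Within a genotype they fell in some of these runs to none, and the calls among all probe sets fell in those runs too. With only the 4 arrays compared in the fit, the counts were 3 higher and 1 lower in wildtype, where 760 of all probe sets were called higher and 197 lower. In Alb::GC they were 0 higher and 0 lower, and of all probe sets 0 were called in either direction. Both settings leave fewer arrays. Where a diet array was left out, the lone array of its group is assumed to vary like the other groups. The median of all probe sets with AP20187 was -0.13 as deposited, -0.08 with array medians made equal and -0.06 with quantile normalization. For the pathway genes, alternatives added after the data were seen kept 255 of 255 values with AP20187 and 211 of 255 with HFD, and the 44 that no longer passed were at 7 probe sets: those named for Hsbp1, Dedd2, Hspb7, Hspb8, Cct4, Asns and Chac1. No paired analysis was possible because the labels carry no replicate numbers that pair arrays. Ratios hold no signal over background, so whether low ratios such as those of Hspa1a lie near background is not known.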
